A study of Mus musculus with 6 samples.

Results

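The solute carrier genes were described in podoplanin-positive cancer-associated fibroblasts (pCAFs) of mouse mammary tumours, parted by the surface protein Ly6C. All gene symbols made of Slc, a family number, the letter a and a member number were taken, which gave 182 of the 12235 genes in the table, from 41 families. Of these, 5 symbols belong to genes that are not transporters (Slc2a4rg-ps, Slc4a1ap, Slc7a6os, Slc9a3r1 and Slc9a3r2) and 2 to carriers whose substrate is not settled (Slc66a2 and Slc45a4). They were kept as a group of their own. The other symbols were sorted by substrate: 14 for glucose and other sugars, 4 for lactate and other monocarboxylates, 38 for amino acids and peptides, 25 for metals, 9 for nucleosides and nucleotide sugars, 27 for organic ions, vitamins and lipids, 34 for the mitochondrial carriers of family 25 and 24 for inorganic ions.

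The pCAFs came from BALB/c females, 8 weeks old, that carried orthotopic tumours grown from 100000 injected 4T1 cells (a BALB/c mammary carcinoma line) to a size of 1 cm. The labels call the injected cells a GFP line in one place and a luciferase line in another. Live cells without Ter119, CD45 and EpCAM and with PDPN were gated as Ly6C+ or Ly6C-, and 3 libraries of 3' mRNA ends were made of each gate. Both groups therefore share the tumour line, strain, age and PDPN gate and differ by Ly6C, and the labels do not say whether libraries of a group came from separate mice, so p-values measure the spread between these libraries.

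Solute carriers are membrane proteins that move small molecules across a membrane by facilitated diffusion or by coupling them to the gradient of another ion or solute. Some work alone, and others need a partner: the monocarboxylate carriers reach the cell surface with basigin or embigin, and several amino acid carriers of family 7 pair with the heavy chain encoded by Slc3a2. In tumours the carriers of glucose, lactate and amino acids are best known for the exchange of fuel between cancer cells and fibroblasts, and metal carriers for the zinc and iron balance of the cell.

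Promoters were searched because the called members include carriers long known as targets of the hypoxia-inducible factors and of the metal-responsive factor MTF1. The windows, from RefSeq on GRCm38.p6, hold 250 bases before and 50 after a transcript start, and 138 of the 182 members had at least 1 window. Each of the 4 stretches shown is the 250 bases before a start, 5' to 3' on the plus strand. Capitals mark the letters ACGTG, the core of the hypoxia response element, on either strand in the first 3 (Slc2a1, chr4:119108495-119108744; Slc16a3, chr11:120948817-120949066; Slc20a1, chr2:129198523-129198772) and TGCNCNC, a form of the metal response element, on the minus strand in the fourth (Slc30a1, chr1:191906531-191906780). Slc20a1 was added for its matches, after they were seen.
Slc2a1: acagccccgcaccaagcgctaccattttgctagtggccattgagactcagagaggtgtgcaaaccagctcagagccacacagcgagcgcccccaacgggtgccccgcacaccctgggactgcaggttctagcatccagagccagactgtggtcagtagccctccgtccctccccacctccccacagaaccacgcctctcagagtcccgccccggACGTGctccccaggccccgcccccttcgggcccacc
Slc16a3: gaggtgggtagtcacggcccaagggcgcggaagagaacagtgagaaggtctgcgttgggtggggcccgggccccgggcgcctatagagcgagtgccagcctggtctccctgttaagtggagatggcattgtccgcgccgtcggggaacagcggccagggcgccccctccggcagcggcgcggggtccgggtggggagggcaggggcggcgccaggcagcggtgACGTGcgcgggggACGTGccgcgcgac
Slc20a1: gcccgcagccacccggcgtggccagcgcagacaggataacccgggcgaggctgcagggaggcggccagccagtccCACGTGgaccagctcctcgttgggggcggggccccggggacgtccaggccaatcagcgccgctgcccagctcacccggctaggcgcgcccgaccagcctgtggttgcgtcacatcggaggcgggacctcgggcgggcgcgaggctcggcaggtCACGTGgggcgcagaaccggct
Slc30a1: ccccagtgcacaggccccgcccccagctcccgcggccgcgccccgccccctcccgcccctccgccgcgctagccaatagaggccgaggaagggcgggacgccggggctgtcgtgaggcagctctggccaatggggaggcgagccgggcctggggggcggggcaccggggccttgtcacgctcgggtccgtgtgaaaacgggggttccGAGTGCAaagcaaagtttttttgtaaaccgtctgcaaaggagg

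The Slc2a1 stretch held 1 ACGTG, with its first base 36 bases before the start. In Slc16a3 there were 2, beginning 27 and 14 bases before the start. Slc20a1 held 4 matches, which are 2 copies of CACGTG read on both strands, beginning 175 and 22 bases before the start, and a second Slc20a1 start farther downstream had none. ACGTG on either strand was present in 27.6% of 192 member windows (53) and in 19.6% of all 32851 windows (6447). Of the 11 called lower members only 5 had a window, and Slc2a3 was among those that had none. ACGTG was in at least 1 window of 4 of the 5 (the 3 above and Slc7a7, with Slc45a3 without it). Of the 16 called higher members 12 had a window, and 3 of the 12 held it (Slc1a3, Slc27a3 and Slc31a2). Counted the same way, 47 of the 138 members with a window did (34.1%). Known targets among the called members prompted the search, so these counts do not test the motif. TGCNCNC was in 57.8% of member windows and 51.0% of all windows, and TGATGNAA, a core of the amino acid response element, in 4.17% and 3.97%. A match describes letters and does not show a bound site.

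The recovered reads per library were 2150531 to 2818269 in Ly6C+ and 1176909 to 1721480 in Ly6C- pCAFs, and solute carrier genes took 0.758% to 0.785% and 0.888% to 0.930% of them. These are shares of library totals, a scaling under which all genes tested had a median log2 fold change of -0.19, so they are not specific to the carriers. Ly6c1, the sorted antigen's gene, stood at 3849, 3142 and 2316 against 88.6, 77.4 and 65.6, as labelled. All 6 fibroblast genes listed were measured in every library: Col1a1 (5716 to 7076), Col1a2 and Thy1 were not called, and Dcn, Pdgfra and Pdpn, the gate's own gene, were called higher in Ly6C+ libraries (3.99-fold, 2.38-fold and 2.19-fold). The gates also differed in markers of other cells. The 6 epithelial markers summed to 82.6 to 328 in Ly6C- against 12.2 to 43.3 in Ly6C+ libraries (Krt19 called lower in Ly6C+, Epcam at most 2.95). The 6 pericyte and smooth muscle markers summed to 419 to 514 in Ly6C- against 155 to 180 in Ly6C+ libraries, a gap carried by Cspg4 (means 367 against 26.9). Of these markers 4 of 5 tested were lower in Ly6C+, Kcnj8 was higher (30.1 against 118) and Rgs5 was untested. The Schwann and muscle list, carried by Des, summed to 77.4 to 688 against 15.5 to 31.6. Measured leukocyte markers, 6 of 7 listed, summed to 80.4 to 339 in Ly6C+ against 36.6 to 94.5, which overlap. Lyz2, at 264 in Ly6C+ replicate 1, was higher (not without Ly6C+ replicate 1, Ly6C- replicate 2 or the mean-variance trend). Cd68, Csf1r and Tyrobp were not called, and Ptprc, untested, was at 0 in all 3 Ly6C- libraries. The granulocyte genes S100a8 and S100a9 stood at 179 and 478 in Ly6C+ replicate 1. They were at most 4.51 in Ly6C+ replicates 2 and 3 and at 0 in the Ly6C- libraries. The lymphocyte list was measured by Cd3e alone (88.7 to 165 against 10.5 to 19.7). Endothelial markers, 3 of 5 listed, summed to 19.5 to 37.2 against 14.4 to 99.5, with Tek called higher in Ly6C+ and Kdr lower. The Kdr call ended without any one library but Ly6C- replicate 3 and without the mean-variance trend (limma adjusted p = 0.0528 to 0.112). Adipocyte markers stayed at or below 1.5. Of 8 dissociation-response genes 6 were higher in Ly6C+ pCAFs, and 1 of these, Atf3, kept its call with quantile normalization. What part these cells or the dissociation response have in the differences given next was not tested.

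Among the 135 members with a mean normalised count of at least 5, which were tested, 16 rose and 11 fell in Ly6C+ relative to Ly6C- pCAFs (limma on log2(value + 1), Benjamini-Hochberg adjusted p under 0.05). Together these 27 are 20% of the tested members, beside 17.1% of all 9646 genes tested. The higher members are 11.9%, beside 9.41% of all genes, and the lower members 8.15%, beside 7.66%. In 46 tested members (34.1%) no value of one group fell within the range of the other, beside 33.1% of all genes tested. These shares lie near the background, so the family as a whole does not stand apart by its number of calls. The median log2 fold change was -0.07 over the tested members and 0.00 over all genes tested. In bulk libraries fewer cells that carry a transcript and less of it per cell cannot be told apart. With each library scaled to its total, which shifted all genes by a median of -0.19 on the log2 scale, 13 members were higher and 18 lower, and 37.4% of all called genes were higher instead of 55.1%. Without Ly6C+ replicate 1 there were 9 higher and 8 lower calls: 16 of the 27 members were still called, and Slc9a3r2, lower, was added (limma adjusted p = 0.0264).

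**Figure D1:**
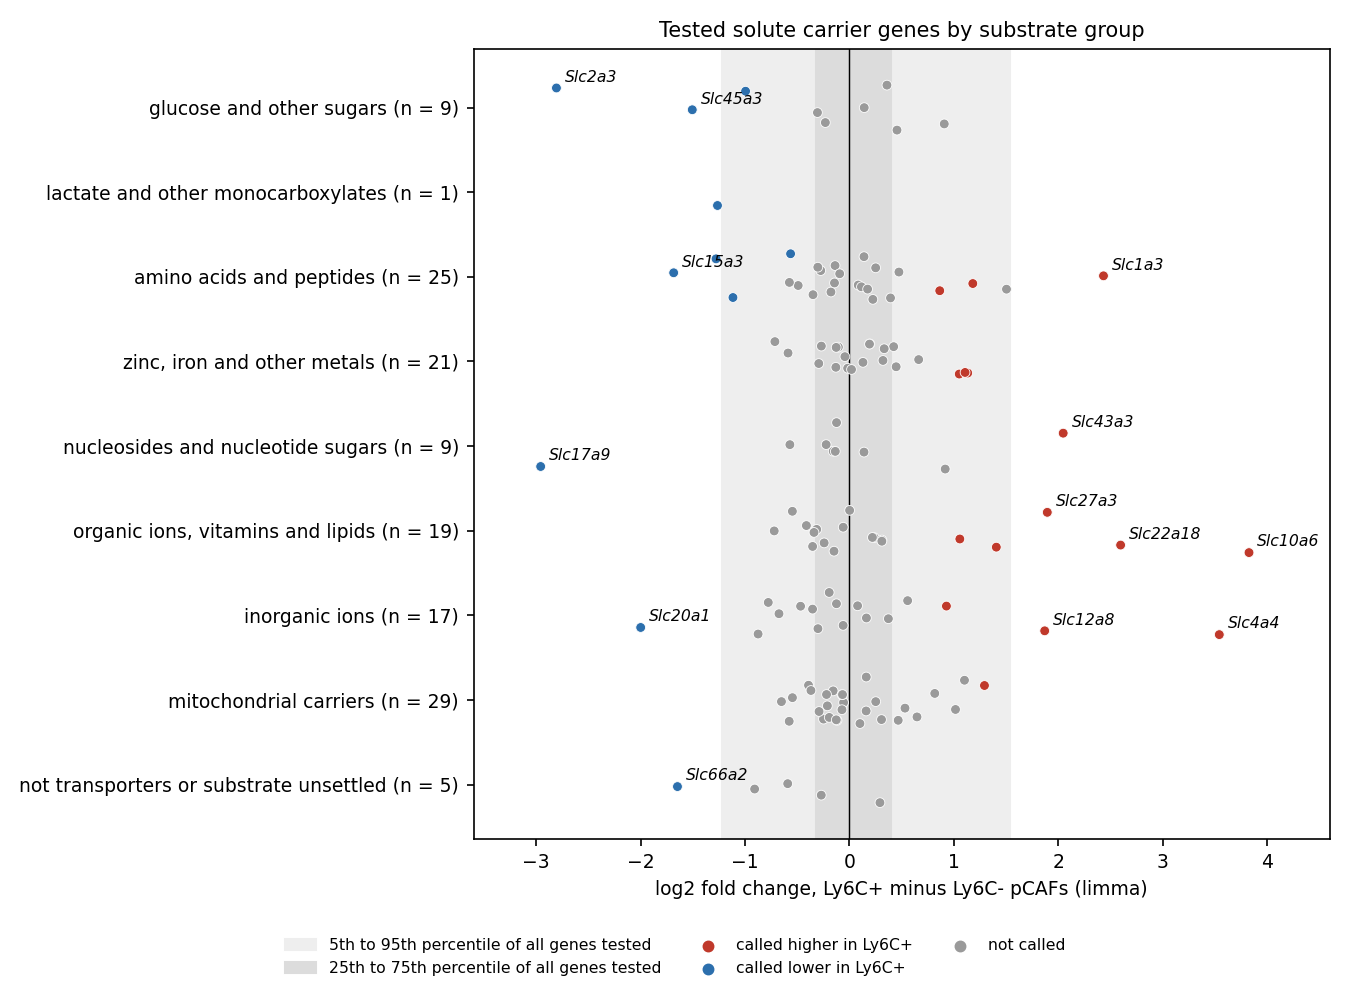
Log2 fold change (Ly6C+ minus Ly6C-, limma) on the x axis of each of the 135 tested solute carrier genes, with 1 point per gene and 1 row per substrate group (vertical position within a row only separates points); shaded bands give the 5th to 95th and 25th to 75th percentiles of all genes tested, and called members with a log2 fold change of at least 1.5 in size carry their symbol. The sugar row and the monocarboxylate row, which holds 1 tested gene, have called members on the lower side only. The metal and organic ion rows have them on the higher side only, and the mitochondrial row has 1 called member of 29.

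Of 9 tested sugar carriers 3 fell in Ly6C+ pCAFs and none rose (33.3% called, beside 17.1% of all genes tested). The group's median log2 fold change was -0.23. Slc37a3 was called higher only with the replicate block or without Ly6C- replicate 3. Slc2a3 encodes GLUT3, a high-affinity glucose carrier (chromosome 6, 122727809 to 122801640, minus strand, mm10). It gave 12.2, 12 and 6.95 normalised counts in the Ly6C+ libraries and 87.6, 61.3 and 83.9 in the Ly6C- libraries. Every Ly6C- value was above 5 times the highest Ly6C+ value. The means differed 7.46-fold (log2 fold change -2.81 with an SE of 0.28, adjusted p = 5.3e-05 by limma). Slc2a1 encodes GLUT1, the glucose carrier of most cells (chromosome 4, 119108711 to 119137983, plus strand). Its values were 267, 348 and 386 against 533, 598 and 895, which do not overlap, and the widest spread was within the Ly6C- group. The means differed 2.02-fold (log2 fold change -0.99 with an SE of 0.22, adjusted p = 0.0094 by limma), and the call ended without Ly6C+ replicate 1 (adjusted p = 0.0511). Slc45a3, a carrier of the sucrose transporter family, was 3.16-fold lower (5.77 ± 2.86 against 18.3 ± 7.56, SD, n = 3 each; limma adjusted p = 0.0369). Its call was lost without Ly6C+ replicate 1 or 3, without Ly6C- replicate 1 or 2 (limma adjusted p = 0.0979 to 0.135) and after thinning (0.0717). The other 6 tested sugar carriers had log2 fold changes of -0.31 to 0.91.

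Of the 4 monocarboxylate carriers 1 was tested, and it fell. Slc16a3 encodes MCT4, which exports lactate from glycolytic cells (chromosome 11, 120948480 to 120960868, plus strand). The Ly6C+ libraries gave 287, 285 and 312 and the Ly6C- libraries 813, 691 and 640. Its lowest Ly6C- value was above 2 times its highest Ly6C+ value. It was 2.43-fold lower in Ly6C+ pCAFs (log2 fold change -1.27 with an SE of 0.16, adjusted p = 0.000228 by limma). Slc16a1, which encodes the lactate carrier MCT1, was not analysed here. Below the filter, Slc16a9 had 24 reads in the Ly6C+ and 2 in the Ly6C- group (ratio of means 6.47, 95% counting interval 1.61 to 56.4), and Slc16a12 had 23 and 3 (ratio 4.72, interval 1.43 to 24.5).

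The genes that work with these carriers did not all move their way. Bsg, basigin, was not called (log2 fold change -0.06; limma adjusted p = 0.859). Emb, embigin, the other chaperone of monocarboxylate carriers, gave 465, 660 and 364 in Ly6C+ against 59.1, 88.5 and 138 in Ly6C- libraries. It was 5.22-fold higher (limma adjusted p = 0.000226), opposite in direction to Slc16a3, though whether embigin serves that carrier in these cells was not tested. Of the 2 hexokinases, which trap glucose in the cell, Hk1 was 1.75-fold lower (limma adjusted p = 0.0103; 0.0540 without Ly6C+ replicate 2). Hk2 was 1.49-fold higher (limma adjusted p = 0.0432), a call lost in 10 of 19 alternatives, among them leaving out any Ly6C+ library or Ly6C- replicate 2 or 3 (adjusted p over the 10 of 0.052 to 0.173). Ldha, the lactate dehydrogenase gene, was not called (log2 fold change -0.25; adjusted p = 0.33). Over the 7 hypoxia genes beside them, Car9, Egln3, Vegfa and Ankrd37 were lower in Ly6C+ pCAFs, Adm was higher, and Bnip3 and Ndrg1 were not called. The Ankrd37 call ended after thinning and without Ly6C- replicate 2 (limma adjusted p = 0.0524 and 0.0522). Their summed values were 1311 to 1553 in Ly6C+ and 1801 to 2078 in Ly6C- libraries. That gap rested on Vegfa (means 355 in Ly6C+ and 1052 in Ly6C-), and Adm went the other way (409 and 86.2). Car9, Egln3, Vegfa and Ankrd37 thus moved the same way as Slc2a1, Slc2a3 and Slc16a3, and the summed list did so through Vegfa. Any shared cause was not tested.

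Amino acid and peptide carriers went both ways, with 3 of 25 tested members higher, 4 lower and a median log2 fold change of -0.09. The called share was 28%, beside 17.1% of all genes tested. With scaling to totals the taurine carrier Slc6a6 was also called lower. Slc1a5 encodes ASCT2, a sodium-coupled carrier of glutamine and other neutral amino acids. It gave 315, 254 and 172 in Ly6C+ pCAFs against 135, 149 and 113 in Ly6C- pCAFs. Both groups stay apart by a narrow margin, since Ly6C+ replicate 3 lies close to the highest Ly6C- value. It was 1.87-fold higher (log2 fold change 0.86 with an SE of 0.23, adjusted p = 0.0234 by limma). That call was lost without Ly6C+ replicate 1 or 2 (limma adjusted p = 0.103 and 0.0851) or Ly6C- replicate 3 (0.0559), with scaling to totals (0.0619) and without the mean-variance trend (0.0767). Slc1a3, which encodes the glutamate carrier GLAST, was 6.16-fold higher (33.5 ± 10.8 against 5.44 ± 2.16, SD, n = 3 each; limma adjusted p = 0.00121). Slc7a8, the neutral amino acid exchanger LAT2, was 2.41-fold higher (limma adjusted p = 0.0184), and lost its call without Ly6C+ replicate 1 or 2 (0.0999 and 0.0625) or Ly6C- replicate 2 (0.0735).

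The amino acid carriers that fell include cationic ones. Slc7a7 encodes y+LAT1, an exchanger of cationic for neutral amino acids (chromosome 14, 54369442 to 54417780, minus strand). Its values were 50.6, 38.3 and 32.5 in Ly6C+ pCAFs against 107, 92.7 and 94.4 in Ly6C- pCAFs, with no overlap. It was 2.42-fold lower (log2 fold change -1.28 with an SE of 0.22, adjusted p = 0.00187 by limma), and it overlaps Oxa1l on the other strand, whose reads may not be told apart since the strand handling is not given. Slc7a2 encodes the cationic amino acid carrier CAT2. It gave 20.7, 37.6 and 18.5 against 65.9, 49.3 and 48.5. Ly6C+ replicate 2 lay nearest the other group. The fold was 2.13 (limma adjusted p = 0.0218), and the call was lost after thinning and without Ly6C+ replicate 1 or 3 or Ly6C- replicate 1 or 2 (limma adjusted p = 0.0593 to 0.0922). Slc15a3, a lysosomal carrier of histidine and small peptides, was 3.54-fold lower (8.77 ± 2.83 against 31.0 ± 12.4, SD, n = 3 each; limma adjusted p = 0.00702) and overlaps Tmem132a on the other strand. Slc6a8, the creatine carrier, was 1.49-fold lower (226 ± 15 against 336 ± 41.5, SD, n = 3 each; limma adjusted p = 0.0374). Leaving out any of the 6 libraries ended that call (limma adjusted p = 0.0505 to 0.112).

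Several amino acid carriers often discussed in tumour stroma did not pass the test. Slc3a2, the heavy chain CD98, gave 445, 419 and 239 against 518, 459 and 333, which overlap (log2 fold change -0.28 with an SE of 0.25, adjusted p = 0.538 by limma). Slc7a5, the LAT1 light chain that pairs with it, gave 24.4, 24.1 and 6.95 against 39.4, 17.9 and 21.0 (log2 fold change -0.58 with an SE of 0.47, adjusted p = 0.476 by limma). Both were lowest in Ly6C+ replicate 3. Slc38a2, the sodium-coupled carrier SNAT2, gave 388, 395 and 300 against 347, 321 and 308 (log2 fold change 0.14 with an SE of 0.17, adjusted p = 0.659 by limma). Slc7a11, the cystine-glutamate exchanger, had 1 read in all 6 libraries together and was not tested. Among the 9 listed genes of amino acid use and response, Glul, glutamine synthetase, was higher and Chac1, a glutathione-degrading enzyme, lower. The other 7 were not called, among them Atf4 and Asns, and 17.1% of all genes tested were called. Glul gave 107, 27.8 and 57.2 against 19.7, 17.0 and 21.0 (3.32-fold, 2.21-fold without Ly6C+ replicate 1; limma adjusted p = 0.0252), and lost its call without Ly6C+ replicate 1 or 3, without Ly6C- replicate 2 and without the mean-variance trend (0.0667 to 0.105). Chac1 was 4.52-fold lower (limma adjusted p = 0.00118).

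Of 21 tested metal carriers 3 rose and none fell, with a median log2 fold change of 0.13. Their called share, 14.3%, lay under the 17.1% of all genes tested. With scaling to totals only Slc39a14 stayed higher, and Slc30a9 and Slc39a8 were called lower. With the replicate block Slc41a1 was also called higher and Slc30a9 lower. Slc39a14 encodes ZIP14, which imports zinc, iron and manganese (chromosome 14, 70303469 to 70351425, minus strand). Its values were 587, 753 and 717 in Ly6C+ pCAFs against 325, 339 and 287 in Ly6C- pCAFs, with no overlap. It was 2.16-fold higher (log2 fold change 1.11 with an SE of 0.16, adjusted p = 0.000743 by limma). Slc30a1 encodes ZnT1, the zinc exporter of the cell surface, and gave 17.1, 19.5 and 17.0 against 5.91, 9.36 and 7.87. The groups do not overlap, on 76 and 23 reads. The fold was 2.32 (limma adjusted p = 0.0331), and the call was lost in 8 alternatives, among them DESeq2 (adjusted p = 0.134) and leaving out any Ly6C+ library or Ly6C- replicate 1 or 2 (limma adjusted p = 0.0543 to 0.133). Slc31a2, a copper carrier of internal membranes also known as CTR2, gave 43.9, 36.1 and 24 against 16.7, 19.6 and 11.8. It was 2.16-fold higher (limma adjusted p = 0.0379), with the call lost in 7 alternatives, including without Ly6C+ replicate 1 or 2 (0.17 and 0.129) and without Ly6C- replicate 2 or 3 (0.0565 and 0.0827). Slc11a2, the iron importer DMT1, gave 103, 86.4 and 68.8 against 102, 91.0 and 86.5 and was not called (log2 fold change -0.13 with an SE of 0.20, adjusted p = 0.743 by limma). Slc40a1, the iron exporter ferroportin, was not analysed here.

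Of 8 tested genes that store and handle zinc and iron 5 rose, none fell and 3 were not called. Of all genes tested 9.41% were called higher, and this short list was drawn up with earlier results of these data known. Mt2, a zinc-binding metallothionein, was 5.97-fold higher (18797 ± 2730 against 3150 ± 533, SD, n = 3 each; limma adjusted p = 7.4e-06). Mt1, its neighbour in function, was 4.46-fold higher (9683 ± 231 against 2170 ± 501, SD, n = 3 each; limma adjusted p = 2e-05). Steap3, a ferrireductase, was 3.51-fold and Cp, the ferroxidase ceruloplasmin, 3.86-fold higher (limma adjusted p = 0.00083 and 0.000626). Fth1, ferritin heavy chain, was 2.01-fold higher (limma adjusted p = 0.0259), a call lost in 7 of 19 alternatives. It went without Ly6C+ replicate 1 or 2 or Ly6C- replicate 2 or 3, with quantile normalization, with scaling to totals and without the mean-variance trend (adjusted p = 0.0563 to 0.135). Ftl1, Heph and the zinc sensor gene Mtf1 were not called, and Tfrc was below the filter.

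**Figure D2:**
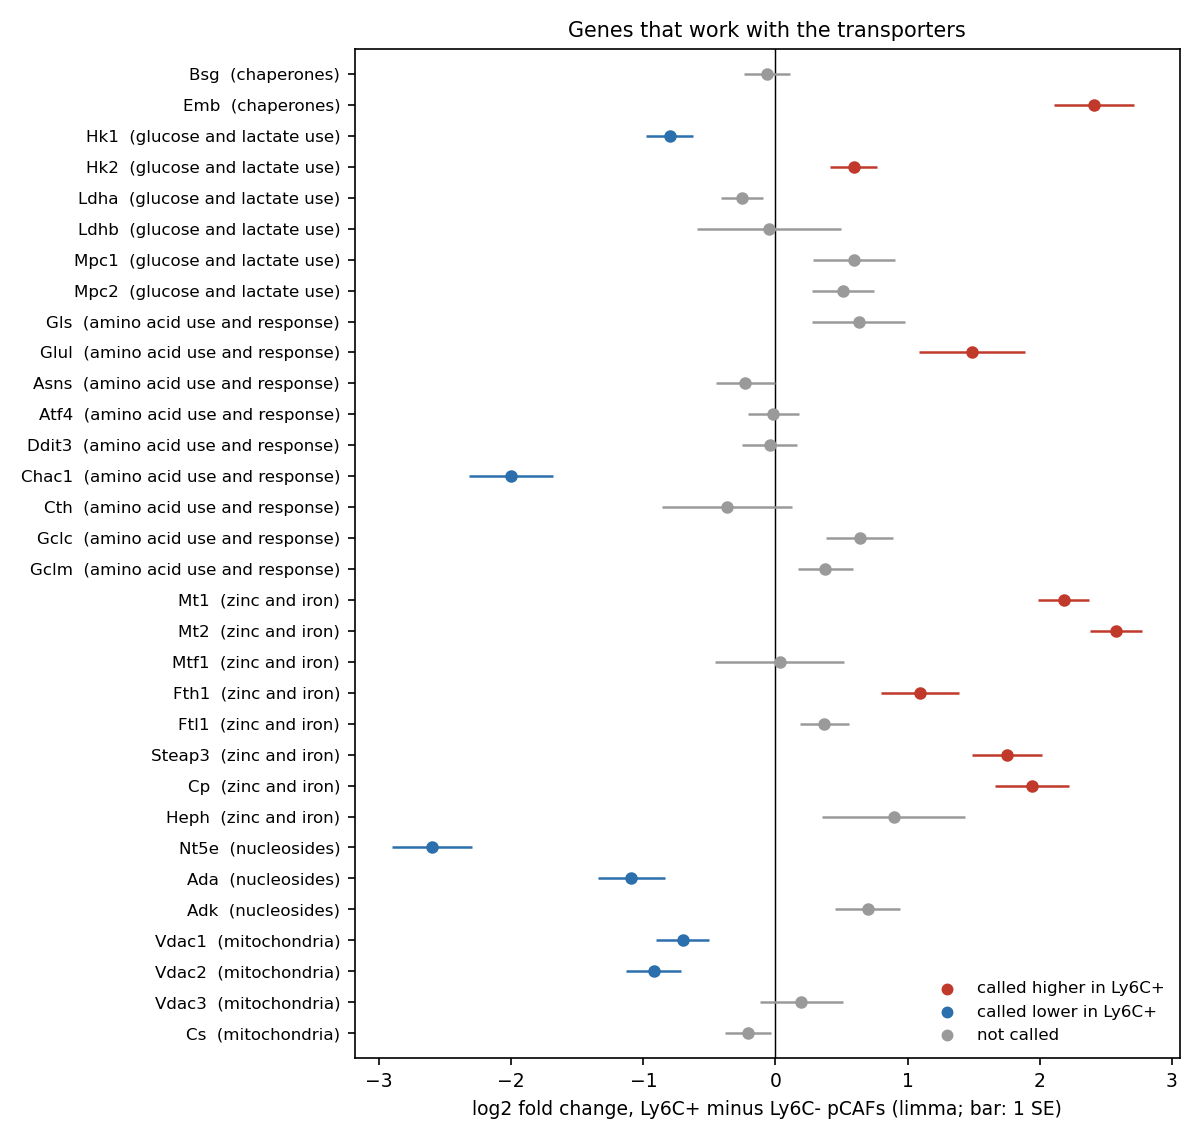
Log2 fold change (x axis, Ly6C+ minus Ly6C-, limma, bar of 1 SE) of the 32 tested partner genes of the transporters, with the function of each in brackets on the y axis. Of the zinc and iron genes 5 of 8 lie to the right of 0 as called genes (9.41% of all genes tested were called higher). Emb lies far to the right while Bsg, the other chaperone, lies near 0.

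Of the 9 nucleoside and nucleotide sugar carriers, all tested, 1 rose and 1 fell (22.2% called, beside 17.1% of all genes tested). Slc43a3 encodes a purine nucleobase carrier (chromosome 2, 84936579 to 84958509, plus strand). It gave 584, 647 and 574 in Ly6C+ pCAFs against 130, 162 and 144 in Ly6C- pCAFs. Values within a group lay close together, and the groups were far apart. It was 4.14-fold higher (log2 fold change 2.05 with an SE of 0.16, adjusted p = 8.7e-06 by limma). Slc17a9, which encodes the vesicular carrier that loads ATP for release, was 11-fold lower (1.94 ± 1.01 against 21.3 ± 4.83, SD, n = 3 each; limma adjusted p = 0.000569), on 8 and 64 reads. Slc29a1, the equilibrative nucleoside carrier ENT1, gave 178, 113 and 61.8 against 82.7, 51.9 and 42.0. These overlap, because Ly6C+ replicate 3 lies under Ly6C- replicate 1. It was not called (log2 fold change 0.92 with an SE of 0.36, adjusted p = 0.117 by limma). It passed with the replicate number as a block (adjusted p = 0.00582 in limma, 0.00322 in edgeR), in DESeq2 (0.0452), without Ly6C+ replicate 3 (0.0229) and without Ly6C- replicate 1 (0.0376). Of the listed partner genes for nucleosides, Nt5e (CD73) was 6.85-fold lower (limma adjusted p = 0.000126). Ada, adenosine deaminase, was 2.12-fold lower (limma adjusted p = 0.0126), with the call lost without Ly6C+ replicate 1 (0.0669) or Ly6C- replicate 2 (0.0537), while Adk was not called and Entpd1 was below the filter.

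The carriers of organic ions, vitamins and lipids held 5 called members of 19 tested, all higher in Ly6C+ pCAFs. That is 26.3%, beside 17.1% of all genes tested, and the group's median log2 fold change was 0.00. Slc10a6 encodes a sodium-coupled carrier of sulphated steroids (chromosome 5, 103605711 to 103629403, minus strand). It gave 241, 261 and 176 in Ly6C+ pCAFs against 10.8, 16.2 and 18.4 in Ly6C- pCAFs. It was 15-fold higher (log2 fold change 3.83 with an SE of 0.25, adjusted p = 2.4e-06 by limma), the largest fold of any called member. Slc27a3, of the family of fatty acid transport proteins, gave 146, 126 and 127 against 33.5, 31.5 and 40.6 and was 3.78-fold higher (log2 fold change 1.89 with an SE of 0.20, adjusted p = 5.8e-05 by limma). Both genes kept the groups apart by a wide gap. Slc44a1, a choline carrier, gave 47.6, 38.3 and 31.7 against 18.7, 11.1 and 13.1 (2.74-fold; limma adjusted p = 0.00581). Slc22a18, an organic cation carrier, was 8.40-fold higher on 70 and 6 reads (limma adjusted p = 0.0031), and 13.9-fold without Ly6C- replicate 2. Slc22a4, the ergothioneine carrier, had 3 reads in all and was not tested.

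Among 17 tested carriers of inorganic ions 3 rose and 1 fell (23.5% called, beside 17.1% of all genes tested). With scaling to totals Slc12a4 and Slc20a2 were also called lower. Slc20a1 encodes PiT-1, a sodium-coupled phosphate importer (chromosome 2, 129198764 to 129211616, plus strand). It gave 86.6, 80.4 and 88.9 in Ly6C+ pCAFs against 244, 295 and 564 in Ly6C- pCAFs. Ly6C- replicate 3 stood far above the other two, and the Ly6C+ values lay close together. It was 4.31-fold lower (log2 fold change -2.0 with an SE of 0.27, adjusted p = 0.000407 by limma). Slc4a4, a sodium bicarbonate cotransporter, gave 47.0, 29.3 and 52.5 against 6.89, 1.70 and 1.31. It was 13-fold higher (log2 fold change 3.54 with an SE of 0.48, adjusted p = 0.000407 by limma), and 28.5-fold without Ly6C- replicate 1, which held most of the 10 Ly6C- reads. Slc12a8, of the cation-chloride cotransporter family, was 4.39-fold higher (limma adjusted p = 0.00904; 0.0633 without Ly6C+ replicate 1). Slc4a3, the anion exchanger AE3, was 1.94-fold higher (limma adjusted p = 0.015), and was lost after thinning (0.124) and without Ly6C+ replicate 1 (0.0746) or 2 (0.068). Slc12a2, the sodium-potassium-chloride cotransporter NKCC1, had a mean of 4.47 ± 0.186 in Ly6C+ and 4.52 ± 2.89 in Ly6C- (SD, n = 3 each) and was below the filter.

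**Figure D3:**
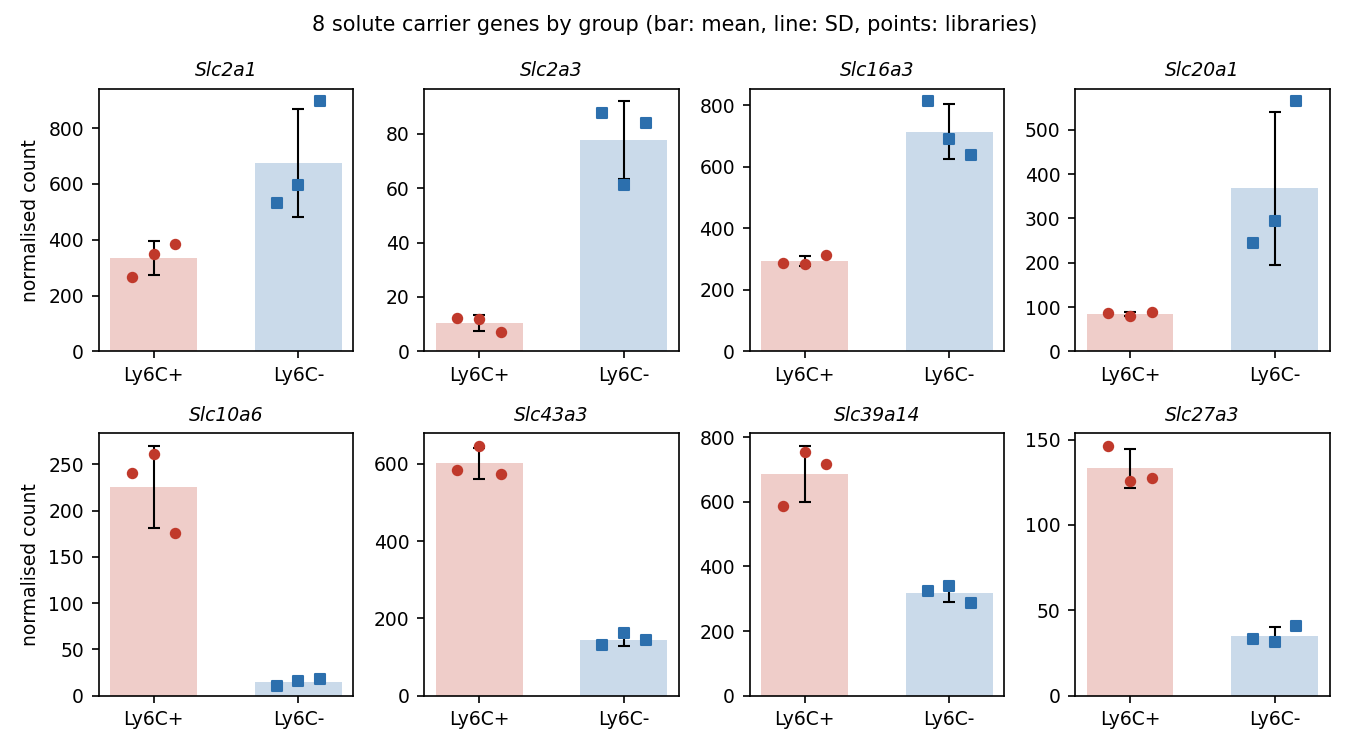
Normalised counts (y axis, from 0) of 8 named carriers in the Ly6C+ and Ly6C- libraries, with bars for the mean, lines for 1 SD (n = 3) and a point per library. In the upper row (Slc2a1, Slc2a3, Slc16a3, Slc20a1) all Ly6C- points are above all Ly6C+ points, and in the lower row (Slc10a6, Slc43a3, Slc39a14, Slc27a3) the order is the reverse.

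Mitochondrial carriers had the smallest share of calls of the substrate groups: 1 of 29 tested was called (3.45%, beside 17.1% of all genes), and 20 of the 29 had a log2 fold change within 0.5 of 0. The called one, Slc25a23, an exchanger of ATP-magnesium for phosphate in the inner membrane, gave 36.0, 27.1 and 25.5 in Ly6C+ pCAFs against 16.7, 9.36 and 9.18 in Ly6C- pCAFs (2.51-fold higher; limma adjusted p = 0.0157). Its call was lost after thinning (0.207) and without Ly6C+ replicate 1 (0.0868) or Ly6C- replicate 2 (0.0677). Slc25a4 encodes the ADP/ATP carrier ANT1 and gave 833, 970 and 1025 against 931, 897 and 1151. Its log2 fold change was -0.07 (SE 0.17; limma adjusted p = 0.834). Slc25a5, the ADP/ATP carrier ANT2, gave 275, 359 and 284 against 431, 370 and 323 (log2 fold change -0.29 with an SE of 0.18, adjusted p = 0.328 by limma). Slc25a3, the phosphate carrier, gave 584, 635 and 1095 against 811, 766 and 1032 (log2 fold change -0.22 with an SE of 0.24, adjusted p = 0.613 by limma). All 3 overlapped between the groups, and an uncalled gene is not shown to be equal. Slc25a22, a glutamate carrier, was called lower only with scaling to totals or the replicate block. The outer membrane channel genes Vdac1 and Vdac2 were 1.67-fold and 1.93-fold lower (limma adjusted p = 0.0338 and 0.0104). Vdac1 lost its call in 6 of 19 alternatives, without any Ly6C+ library or Ly6C- replicate 2 or 3 and without the mean-variance trend (adjusted p = 0.059 to 0.116), and Vdac2 without Ly6C+ replicate 1 (0.0537). Vdac3 and the citrate synthase gene Cs were not called.

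Of the symbols outside the transporters proper or without a settled substrate, 1 of 5 tested was called (20%, beside 17.1% of all genes tested). Slc66a2, a carrier with PQ-loop repeats, gave 81.7, 78.2 and 66.5 against 232, 243 and 237 and was 3.15-fold lower (log2 fold change -1.65 with an SE of 0.17, adjusted p = 5.7e-05 by limma). Its values within each group lay close together. Slc9a3r1 and Slc9a3r2, scaffold proteins that carry a solute carrier symbol, were not called (limma adjusted p = 0.401 and 0.0868), though the second passed in 5 alternatives and the first without Ly6C- replicate 3.

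**Figure D4:**
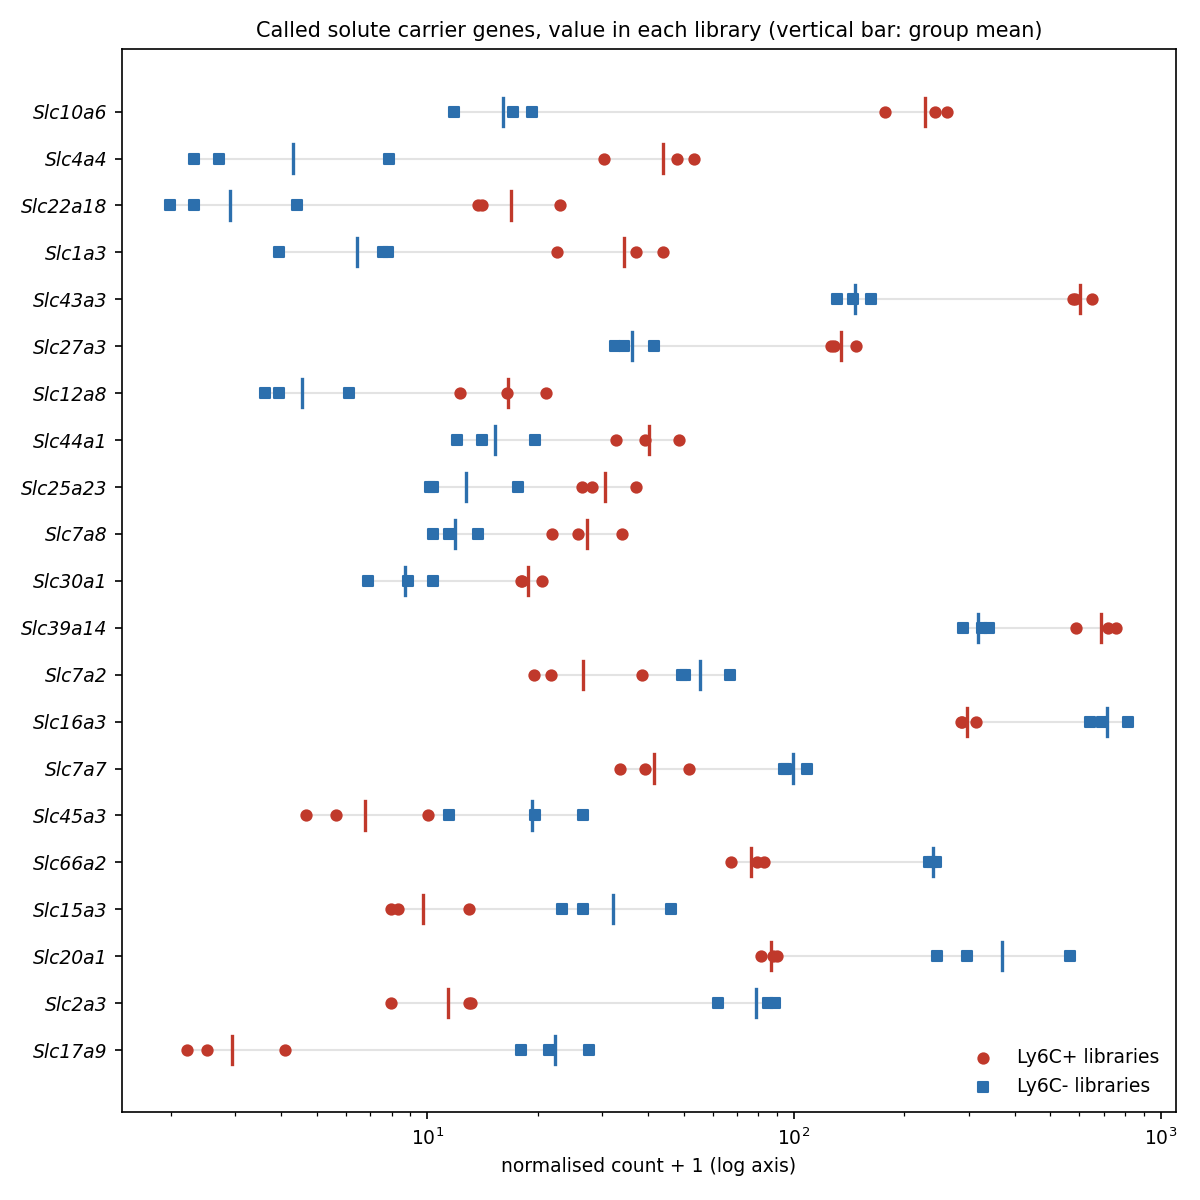
Normalised count + 1 (x axis, log scale) in each library of the 21 called members with a log2 fold change of at least 1.1 in size, with circles for Ly6C+ and squares for Ly6C- libraries and a vertical bar at each group mean. In all 21 the circles and squares do not overlap, from Slc10a6 at the top (15-fold higher) to Slc17a9 at the bottom (11-fold lower).

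Close relatives of the called members were set beside them; these relatives were chosen after their values were seen, and the difference between relatives was not tested. Slc20a2, the phosphate carrier PiT-2, gave 40.9, 74.4 and 70.3 against 97.4, 104 and 87.8, in the same order as Slc20a1 and without overlap, but was not called (log2 fold change -0.67; limma adjusted p = 0.0882). Slc7a1, the cationic amino acid carrier CAT1, gave 53.7, 49.6 and 79.6 against 65.0, 77.4 and 80.0 and was not called (log2 fold change -0.30), where its relative Slc7a2 fell. Slc7a6, y+LAT2, gave 67.1, 84.9 and 78.8 against 61.0, 63.8 and 80.0 (log2 fold change 0.17), beside the fall of Slc7a7. Slc1a4, the neutral amino acid carrier ASCT1, gave 31.7, 38.3 and 36.3 against 40.4, 40.8 and 56.4 (log2 fold change -0.35), beside the rise of Slc1a5. In the metal group Slc31a1, the surface copper importer CTR1, gave 37.8, 38.3 and 44.8 against 40.4, 37.4 and 47.2 (log2 fold change -0.04). The zinc carriers Slc39a7 and Slc39a13 of the secretory pathway had log2 fold changes of 0.02 and -0.13. Slc44a2, related to the choline carrier Slc44a1, gave 141, 120 and 95.8 against 154, 147 and 146 (log2 fold change -0.34), without overlap but without passing the test, where Slc44a1 rose. None of these 8 relatives was called, and Slc20a2 passed only with scaling to totals or the replicate block.

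Levels were also summed over all members of each substrate group, tested or not, which describes the group without a test. Monocarboxylate carriers summed to 296 to 323 normalised counts in Ly6C+ and 645 to 818 in Ly6C- libraries, and sugar carriers to 624 to 717 and 925 to 1211. Nucleoside and nucleotide sugar carriers summed to 975 to 1112 and 569 to 598, and carriers of organic ions, vitamins and lipids to 908 to 1093 and 575 to 638. Metal carriers summed to 2673 to 2788 and 2276 to 2455, and inorganic ion carriers to 777 to 929 and 1079 to 1301. On the deposited scale these 6 of the 8 substrate sums did not overlap between the groups, but most rested on 1 gene. Scaling to library totals shifted all genes tested by a median of -0.19 on the log2 scale. The sums are not given on that scale, where which of them overlap can differ. Without the member whose group means differ most, the sugar (without Slc2a1), nucleoside (Slc43a3), metal (Slc39a14) and inorganic ion (Slc20a1) sums overlapped. Nucleoside carriers then summed to 401 to 505 against 425 to 448, and metal carriers to 2035 to 2085 against 1989 to 2117. Without Slc16a3 the 3 remaining monocarboxylate carriers were in the opposite order, 9.76 to 13.5 in Ly6C+ against 1.70 to 5.24, and without Slc10a6 the organic ion sums stayed apart (732 to 852 against 564 to 620). Amino acid carriers (2422 to 2923 against 2726 to 2996) and mitochondrial carriers (3217 to 3822 against 3530 to 3970) did overlap on the deposited scale.

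Of the 108 tested members that were not called, 84 had a log2 fold change within 0.5 of 0, and the lowest adjusted p among them was 0.0569 (limma). The 47 untested members had a mean under 5: 30 of them had 20 reads or fewer in all 6 libraries together, and Slc22a29 and Slc12a3 had none. With no filter, 3 of these 47 passed limma: Slc25a43, a mitochondrial carrier, with 0 reads in Ly6C+ and 8 in Ly6C- (at least 3.81-fold lower in Ly6C+, with a floor of 3 reads over the group; adjusted p = 0.0123), Slc16a9 (0.0273) and Slc39a2, a zinc importer, with 7 and 18 reads (means 1.63 and 6.18; 0.0431). Of the 31 members with a mean of at least 100, 10 were called (32.3%), beside 25.9% of the 2517 genes at that level. Of the 27 called members, 16 passed in every alternative that tested them and 11 failed in at least 1.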

How the data were processed

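Signal values were used as deposited: read counts that the authors had scaled with 1 factor for each library. The submitters' processing notes list bcl2fastq, STAR 2.4.2a, HTSeq and the build mm10. The annotation, the strand and molecular tag handling and the size factor tool are not given in the sources used here. All values (100%, tolerance 0.001) were whole multiples of the value of 1 read (0.610 to 1.31), so whole reads were recovered, and edgeR on them called 1721 genes.

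Groups were compared with limma 3.58.1 under R 4.3.3 on log2(value + 1) with a mean-variance trend, 3 libraries against 3, over 9646 genes with a mean of at least 5, Benjamini-Hochberg adjusted p under 0.05. A fold is a ratio of group means, and log2 fold changes understate the change of low genes. The settings varied were the pseudocount (0.5, 5), the filter (none, a mean from 20 up), the scaling (quantiles, recomputed size factors, library totals), the trend (none), the replicate number as a block, edgeR 4.0.16 with TMM factors (with and without the block), DESeq2 1.42.0, each library left out, and thinning to 1176909 reads, which was chosen after seeing the data. A floor is 3 reads over a group, and intervals are exact 95% and cover counting error only. The fits were tested on simulated data.

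Values in every library are given for called members with a mean of at least 20 and a 2-fold difference and for 20 key carriers, and folds or means for other called members; 1 called member is counted but not reported here. The members and lists were chosen with earlier results of these data known. Coordinates are from GENCODE M21, which matched 180 of 182 symbols. The erythroid marker list had no gene in the table used here. Tables used Python 3.11.15, pandas 2.3.3, numpy 2.4.6 and scipy 1.17.1, and figures matplotlib 3.10.9.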

Additional observations from a re-analysis of the deposited data

How the results depend on the processing

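No called member changed direction in any of the 19 alternatives. Scaling to library totals gave 18 lower members instead of 11: 3 higher calls were lost and 7 lower calls were new. With 1 library left out, 1121 to 1728 genes were called, 9 to 17 members higher and 8 to 11 lower; the fewest higher members came without Ly6C+ replicate 1. With the replicate number as a block, limma called 2088 genes, 19 members higher and 15 lower, and edgeR with the block 2113, 19 and 15; all 27 members of the fit without it were among them. The correlations of deviations between same-numbered libraries were 0.129, 0.0518 and 0.167, and between differently numbered libraries of opposite groups -0.148 to 0.0339. Each library thus correlated best with its own number. The labels do not say whether the numbers pair the libraries, so counts with and without the block are both given. Thinning to equal reads ended 6 of the 27 calls, and no filter gave 17 higher and 13 lower members. Depth limits the members with few reads: of the 47 untested, 3 passed with no filter, and differences in Slc7a11 (1 read) and Slc22a4 (3 reads) were not detectable at this depth.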
